A study of Homo sapiens with 2 samples.

Results

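Cells with a high level of S phase transcripts were examined in 2 single-cell RNA-seq libraries of the prostate epithelial line RWPE1. Cells were kept when they had over 2500 detected genes and under 7.5% of their unique molecular identifiers (UMIs, one per captured RNA molecule) in mitochondrially encoded genes. The S phase score of a cell was its summed UMIs of MCM3, MCM5, CDC6, CDC45, CLSPN, GINS2, CCNE2, UNG, E2F1 and TYMS per 10000 UMIs. Cells at or above the 90th percentile of this score over both libraries pooled, a score of 9.96, were taken when at most 2 of 6 mitosis genes (AURKA, PLK1, CDC20, CENPE, KIF14, KIF20A) were detected. These S phase score cells numbered 1940 of 24107 kept cells (8.05%), and all other kept cells are called other cells. The score is a measure of RNA, and DNA synthesis itself was not measured.

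RWPE1 is an immortalized, otherwise normal human prostate line. The labels give the genotype of the first library as "Vector only control", while the text of the study calls these cells parental. The second library, RWPE-ERG-mAKT, carried retroviral ERG, an ETS family transcription factor, under the HNRNPA2B1 promoter in place of the CMV promoter, and myristoylated AKT1 (mAKT), which the added lipid anchor keeps active at the membrane. These transduced cells, as they are also called below, were kept under hygromycin and puromycin, and nothing states that either line was a clone. The study names pBABE-puro as a vector control, so by its label RWPE1 may also have been transduced and selected. Each condition was 1 library, so no test between conditions was possible, every 95% interval below covers counting error only, and a difference between the libraries cannot be told apart from a difference between 2 preparations or cultures.

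In S phase a cell copies its genome. MCM helicases are loaded on origins with the help of CDC6 and CDT1, the helicase is switched on by CDC45 and the GINS complex, and polymerases held to DNA by the clamp PCNA then copy both strands while new histones are added behind the fork. Many of these genes share E2F transcription factors, which cyclin D and cyclin E kinases release from the retinoblastoma protein RB1, whereas mitosis genes are transcribed later and often carry a CHR element in their promoters.

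Promoters picked as examples show this division in sequence, though not every score or limit gene holds the letters. Each line gives 160 bases before the RefSeq start site, 5′ to 3′ on the gene's strand, in GRCh38.p14. Capitals mark the E2F letters TTTCCCGC, TTTCGCGC, TTTGCCGC or TTTGGCGC, or their reverse complements, in the replication genes, and the CHR letters TTTGAA or TTCGAA in the mitosis genes. Neighbouring matches in MCM6 overlap and appear as a joined run. E2F1 and GINS2 are score genes, MCM6 (a helicase subunit), PCNA and DTL (part of the ligase that removes CDT1) are not, and PLK1 and CDC20 belong to the mitosis limit.
E2F1 (chr20:33686386-33686545, minus strand): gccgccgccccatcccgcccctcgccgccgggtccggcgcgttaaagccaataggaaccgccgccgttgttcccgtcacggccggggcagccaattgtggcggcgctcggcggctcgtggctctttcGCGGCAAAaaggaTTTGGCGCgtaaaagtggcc
GINS2 (chr16:85688955-85689114, minus strand): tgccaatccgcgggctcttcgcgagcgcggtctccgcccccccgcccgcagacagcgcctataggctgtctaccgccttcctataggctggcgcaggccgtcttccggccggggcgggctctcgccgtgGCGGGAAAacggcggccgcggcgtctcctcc
MCM6 (chr2:135876444-135876603, minus strand): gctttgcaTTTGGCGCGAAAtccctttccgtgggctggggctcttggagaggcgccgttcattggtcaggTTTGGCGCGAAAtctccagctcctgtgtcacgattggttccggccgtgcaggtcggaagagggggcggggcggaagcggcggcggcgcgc
PCNA (chr20:5126623-5126782, minus strand): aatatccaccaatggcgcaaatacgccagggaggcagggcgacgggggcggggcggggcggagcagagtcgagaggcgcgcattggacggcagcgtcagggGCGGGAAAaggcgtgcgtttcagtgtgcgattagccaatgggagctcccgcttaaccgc
DTL (chr1:212035588-212035747, plus strand): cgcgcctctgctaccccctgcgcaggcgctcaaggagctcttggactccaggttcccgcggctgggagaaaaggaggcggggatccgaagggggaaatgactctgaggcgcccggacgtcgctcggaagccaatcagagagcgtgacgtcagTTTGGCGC
PLK1 (chr16:23678729-23678888, plus strand): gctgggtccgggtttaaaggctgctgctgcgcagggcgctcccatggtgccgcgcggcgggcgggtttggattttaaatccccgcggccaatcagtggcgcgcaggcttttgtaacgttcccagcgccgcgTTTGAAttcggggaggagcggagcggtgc
CDC20 (chr1:43358821-43358980, plus strand): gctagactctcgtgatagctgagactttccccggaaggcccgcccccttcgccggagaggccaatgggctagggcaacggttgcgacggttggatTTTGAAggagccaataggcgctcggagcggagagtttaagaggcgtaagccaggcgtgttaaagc

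In windows from 250 bases before to 50 bases after the start site, searched on both strands, the E2F letters were found in 6 of the 8 score genes with a RefSeq promoter used here (75%). MCM5 and CCNE2 were not analysed here. Among replication genes that the score does not use, 31 of 99 promoters held them (31.3%), against 908 of 27305 promoters overall (3.33%). The CHR letters were found in 24 of 29 promoters of a G2 and mitosis list (82.8%), in 0 of the 8 score gene promoters and in 16.6% of all promoters. Score genes CDC45 and UNG held no E2F letters, and 3 of 5 promoters of the limit genes held CHR letters. E2F letters also stood in 10.3% of the G2 and mitosis promoters, and CHR letters in 13.1% of the replication promoters outside the score. CCAAT, searched as well, stood in 35.7% of all promoters. A match is a run of letters and not a measured binding site.

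RWPE-ERG-mAKT held more S phase score cells than RWPE1. They were 309 of 9967 kept cells in RWPE1 (3.10%, exact Clopper-Pearson interval 2.77 to 3.46%) and 1631 of 14140 in RWPE-ERG-mAKT (11.5%, 11.0 to 12.1%). The ratio of the shares was 3.72 (3.29 to 4.22). The mitosis limit set aside 93 further cells over the score cut of RWPE1 (23.1%) and 378 of the transduced cells (18.8%), and without it the shares were 4.03% and 14.2%. Cells with 3 or more of the 6 mitosis genes were 51.0% of kept cells in RWPE1 and 42.3% in RWPE-ERG-mAKT. The score therefore marked the second library more often, while these mitosis genes were detected in more cells of the first. Detection rises with depth, and the kept RWPE1 cells were deeper, with a median of 16972 UMIs against 13601. Summed over kept cells, the 6 genes were also higher in the first library, at 5.92 against 5.06 UMIs per 10000. A list of 33 G2 and mitosis genes went the other way, its median level per cell being 26.2 per 10000 in the first library against 29.7. The order of the libraries in mitosis RNA thus depended on the genes and measure taken.

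**Figure D1:**
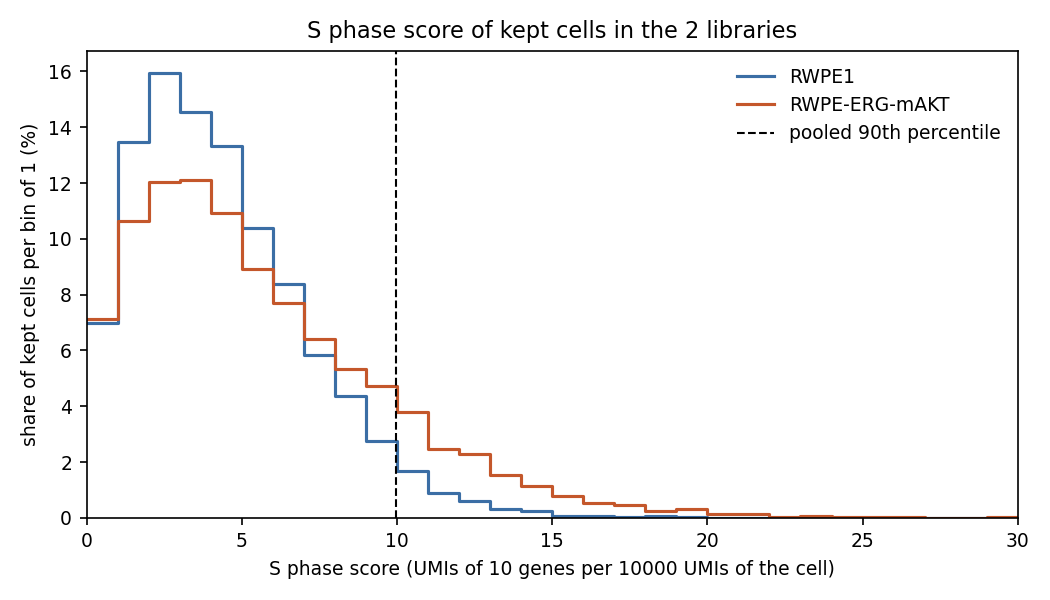
Distribution of the S phase score (UMIs of the 10 score genes per 10000 UMIs of the cell, x axis) as the percent of kept cells in each bin of 1 (y axis), for RWPE1 (9967 cells) and RWPE-ERG-mAKT (14140 cells). The dashed line is the pooled 90th percentile at 9.96, and the RWPE-ERG-mAKT curve lies above the RWPE1 curve to its right.

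The size of that difference varied with depth. The median score was 3.94 in RWPE1 and 4.73 in the transduced cells, and the score genes summed over all kept cells were 4.31 and 5.55 UMIs per 10000. The top of the distribution thus differed more than its centre. Replication genes outside the score summed to 84.4 UMIs per 10000 over all kept cells of RWPE1 and 92.9 over those of RWPE-ERG-mAKT, a much smaller difference than that of the shares. S phase score cells were shallower than other cells, with medians of 14199 against 17082 UMIs in RWPE1 and 11430 against 13983 in RWPE-ERG-mAKT. Among cells under 10000 UMIs the share was 7.43% in RWPE1 and 16.2% in the transduced cells, and among cells of 30000 UMIs or more it was 0.361% and 3.63%. The order of the libraries was the same in all 5 depth bins. After each cell was thinned to 5000 UMIs and the cut taken anew, the shares were 5.84% and 12.7% and the ratio was 2.18. Only 175 of the 582 RWPE1 cells and 1081 of the 1799 RWPE-ERG-mAKT cells chosen in this way were S phase score cells at full depth. The median S phase score cell held 17 score UMIs in RWPE1 and 15 in the transduced cells, and 7 of the 10 genes were detected in the median cell of both.

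Cells lay densely on both sides of the cut. Within 10% of it stood 533 S phase score cells above and 716 cells of the same mitosis limit below. The lowest scores inside were 9.959, 9.961 and 9.962, and the highest scores outside were 9.9564, 9.9562 and 9.9557. The S phase score cells are thus defined by a cut in a range of scores, and whether they form a group of their own was not tested. RWPE1 also held 53 barcodes with microglia or choroid plexus genes, in which score genes summed to 2.89 UMIs per 10000 (2.16 to 3.78) at a median of 617 UMIs. Other cells of RWPE1 held 4.13 and S phase score cells 11.9. Only 5 of these 53 barcodes were kept cells, 0 of them S phase score cells, and barcodes that were not kept could not be chosen. Their score UMIs came from 8 barcodes, so the sum is no control for kept cells. The libraries shared 55 cell barcodes, 0 of them as S phase score cells in both.

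The genes of the score describe the choice and support nothing by themselves. MCM3, a helicase subunit, stood at 258 CPM (UMIs of a gene over all UMIs of the cells, scaled to the same total in every group) in S phase score cells and 91.5 in other cells of RWPE1, and at 203 and 76.8 in RWPE-ERG-mAKT. It gave 21.7% of the score UMIs in RWPE1. In RWPE-ERG-mAKT the largest contributor was CLSPN, the checkpoint adaptor Claspin, with 21.8%, at 284 CPM against 104. CCNE2, cyclin E2, had the largest ratio of the 10 genes in both libraries, with log2 ratios of 2.05 and 2.27. The score genes together stood at 11.9 UMIs per 10000 in S phase score cells of RWPE1 and at 13.0 in those of the transduced library, and different genes gave the largest part.

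Detection of score genes at equal depth showed the same contrast. Their UMIs at full depth chose the cells, so this describes the choice and supports nothing by itself. After thinning to 5000 UMIs, MCM3 was detected in 69.3% of S phase score cells and 35.9% of other cells of RWPE1, against 96.8% and 73.3% before thinning. CCNE2 was detected in 14.2% and 4.40% of them, and in 23.5% and 4.80% of the cells of RWPE-ERG-mAKT. E2F1, the activator of many of these genes, was detected in 29.4% and 13.6% of the RWPE1 cells and in 22.8% and 8.12% of the RWPE-ERG-mAKT cells.

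Replication genes that the score does not use were higher in S phase score cells of both libraries. Over 1.5-fold higher were 45 of 108 such genes in RWPE1, beside 7.76% of 9510 genes tested, and 72 of 109 in RWPE-ERG-mAKT, beside 3.07% of 8879. Over 1.5-fold lower were 2 (CCNA2 and DBF4) in RWPE1, beside 2.57% of genes tested, and 1 (CCNA2) in RWPE-ERG-mAKT, beside 0.969%. The median log2 ratio of these genes was 0.51 in RWPE1 and 0.72 in the transduced cells, and that of all genes tested was 0.03 and 0.04. The cells were chosen by RNA of the same cells, so these are descriptions of the chosen cells and no test. Above 0 were 92 of the 108 in RWPE1, beside 5154 of all 9510 genes tested. In the transduced cells 105 of the 109 were, beside 5497 of 8879.

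Cyclin E1 and E2F2 were among the genes of S phase entry with the larger ratios. CCNE1 (ENSG00000105173, chr19:29811898-29824308, plus strand), the gene of cyclin E1, stood at 10.4 CPM in S phase score cells and 3.95 in other cells of RWPE1, and at 13.7 and 5.16 in RWPE-ERG-mAKT. Its log2 ratios were 1.39 (0.94 to 1.82) and 1.41 (1.21 to 1.59). E2F2 (ENSG00000007968, chr1:23506430-23531220, minus strand), an activator related to E2F1, had log2 ratios of 1.68 (1.33 to 2.02) and 1.54 (1.35 to 1.73). DTL, whose promoter is printed above, had 1.20 and 1.46, from 101 against 44.0 CPM and 134 against 48.5 CPM. CDC25A, a phosphatase that activates CDK2, had 1.24 and 1.02. Of the 14 genes of this list, 7 were higher in RWPE1 and 8 in RWPE-ERG-mAKT. CCNA2 (ENSG00000145386, chr4:121816444-121823933, minus strand), the cyclin A of later S phase and G2, went the other way at -1.20 and -0.77.

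Of 12 origin licensing genes, 5 were over 1.5-fold higher in RWPE1 and 8 in the transduced cells, and of the helicase activation list 4 of 10 and 6 of 11. MCM6 (ENSG00000076003, chr2:135839626-135876426, minus strand) stood at 131 CPM against 58.8 in RWPE1 and at 135 against 63.5 in RWPE-ERG-mAKT, with log2 ratios of 1.15 and 1.09. MCM10, which helps to fire the loaded helicase, had 1.22 and 1.28. ORC1, the largest subunit of the origin recognition complex, had 0.74 and 1.15. CDT1, the loading factor that DTL helps to destroy, had 0.43 in RWPE1 and 0.95 in RWPE-ERG-mAKT. ORC2, of the same complex as ORC1, had the lowest ratio of the licensing list in both, -0.33 and -0.07. DBF4, the activator of the CDC7 kinase, stood at -0.59 and -0.57, unlike MCM10 in the same list.

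Fork genes were about 2-fold higher or less. PCNA (ENSG00000132646, chr20:5114953-5126626, minus strand), the sliding clamp, stood at 193 CPM against 96.3 in RWPE1 and at 354 against 176 in the transduced cells, a log2 ratio of 1.00 and 1.01. The replicative polymerase list had medians of 0.56 and 0.74. All 10 of its genes were above 0 in both libraries, beside 5154 of 9510 and 5497 of 8879 genes tested. The list was led by POLA2 (0.95 and 0.80) and POLD3 (0.83 and 0.96), subunits of polymerase alpha and delta. Flap endonuclease FEN1, which trims Okazaki fragments, had 0.70 and 0.92, and the ligase LIG1 0.54 and 0.85. Of the clamp and Okazaki list, 4 of 14 genes were over 1.5-fold higher in RWPE1 and 10 of 13 in RWPE-ERG-mAKT.

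Of 11 genes of nucleotide supply, 3 were over 1.5-fold higher in RWPE1 and 6 in the transduced cells. DUT, the dUTPase, stood at 549 CPM against 286 in RWPE1 and at 828 against 437 in RWPE-ERG-mAKT. RRM2, the regulated subunit of ribonucleotide reductase, had log2 ratios of 0.50 and 0.98. The histone chaperone ASF1B had 1.55 and 1.32 and the chromatin remodeller HELLS 0.73 and 1.05, and 8 and 10 of the 11 genes of their list were over 1.5-fold higher. The exonuclease EXO1 had 1.14 and 1.41. In the list of checkpoint and repair genes 9 of 17 and 13 of 17 were higher.

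**Figure D2:**
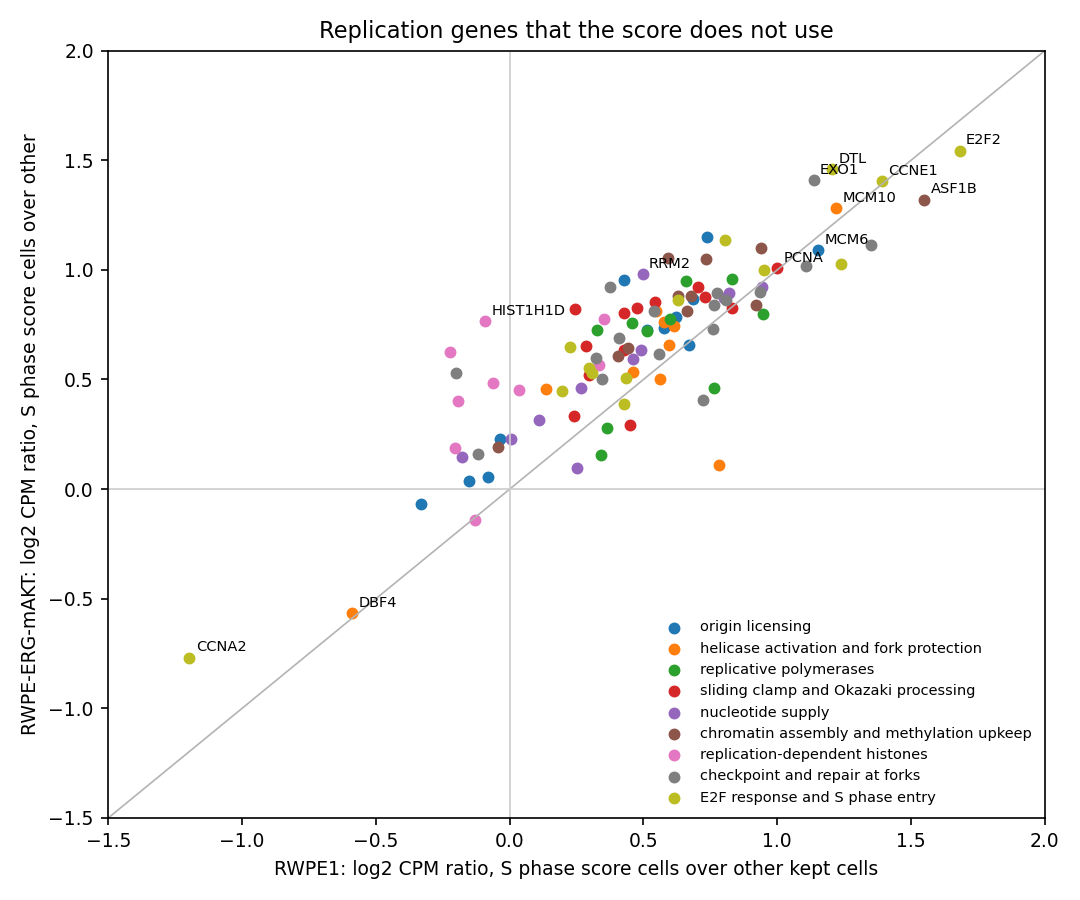
Log2 ratio of CPM in S phase score cells over other cells for each replication gene outside the score, RWPE1 on the x axis and RWPE-ERG-mAKT on the y axis, coloured by role, with the diagonal of equal ratios. Most genes lie in the upper right, E2F2 (1.68 and 1.54) among the highest, and CCNA2 (-1.20 and -0.77) and DBF4 (-0.59 and -0.57) lie in the lower left.

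Replication-dependent histones differed from the other roles and between the libraries. Their median log2 ratio was -0.09 over 9 genes in RWPE1 (0 over 1.5-fold higher) and 0.52 over 10 genes in RWPE-ERG-mAKT (4 higher). Linker histone HIST1H1D stood at 43.9 CPM against 46.8 in RWPE1 (-0.09, -0.30 to 0.11) and at 61.1 against 35.9 in the transduced cells (0.76, 0.68 to 0.85). Most of these transcripts end in a stem-loop without a poly(A) tail, and the assay captures polyadenylated RNA, so their counts cover only part of their RNA. SLBP, the protein that binds that stem-loop, was higher in both (0.92 and 0.84).

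HIST1H4C, a histone H4 gene, was higher with each further mitosis gene detected in the S phase score cells. In RWPE1 it stood at 603 CPM in the 83 cells with 0 of the 6 mitosis genes, at 757 in the 131 cells with 1 and at 1090 in the 95 cells with 2. In RWPE-ERG-mAKT these levels were 608, 777 and 1222 CPM in 413, 696 and 522 cells. Cells over the score cut with 3 or more mitosis genes, which the limit set aside, were at 1615 CPM and 1841 CPM. HIST1H4C thus followed the same order of classes in both libraries, while HIST1H2AC, a histone H2A gene, stood at 17.5, 16.5 and 14.5 CPM in the S phase score cells of RWPE-ERG-mAKT with 0, 1 and 2 mitosis genes.

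Entry and late genes parted along the same classes. In RWPE-ERG-mAKT, CCNE1 stood at 11.9, 13.6 and 14.7 CPM in S phase score cells with 0, 1 and 2 mitosis genes, intervals that overlap, at 12.5 CPM in the cells set aside by the limit and at 3.39 CPM in cells below the cut with 3 or more mitosis genes. CCNA2 stood at 34.3, 42.4, 51.8, 70.4 and 119 CPM in the same order. TOP2A, the topoisomerase that untangles copied DNA, went from 102 to 111, 142, 182 and 400 CPM. E2F2 stood at 13.0, 13.9 and 14.8 CPM in the same S phase score cells. In RWPE1 CCNE1 stood at 11.7, 12.9 and 6.72 CPM in S phase score cells with 0, 1 and 2 mitosis genes, again with overlapping intervals. The classes are partly a matter of depth, since deeper cells show more of the 6 genes, and CCNA2 and TOP2A are co-expressed with the genes that define them.

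**Figure D3:**
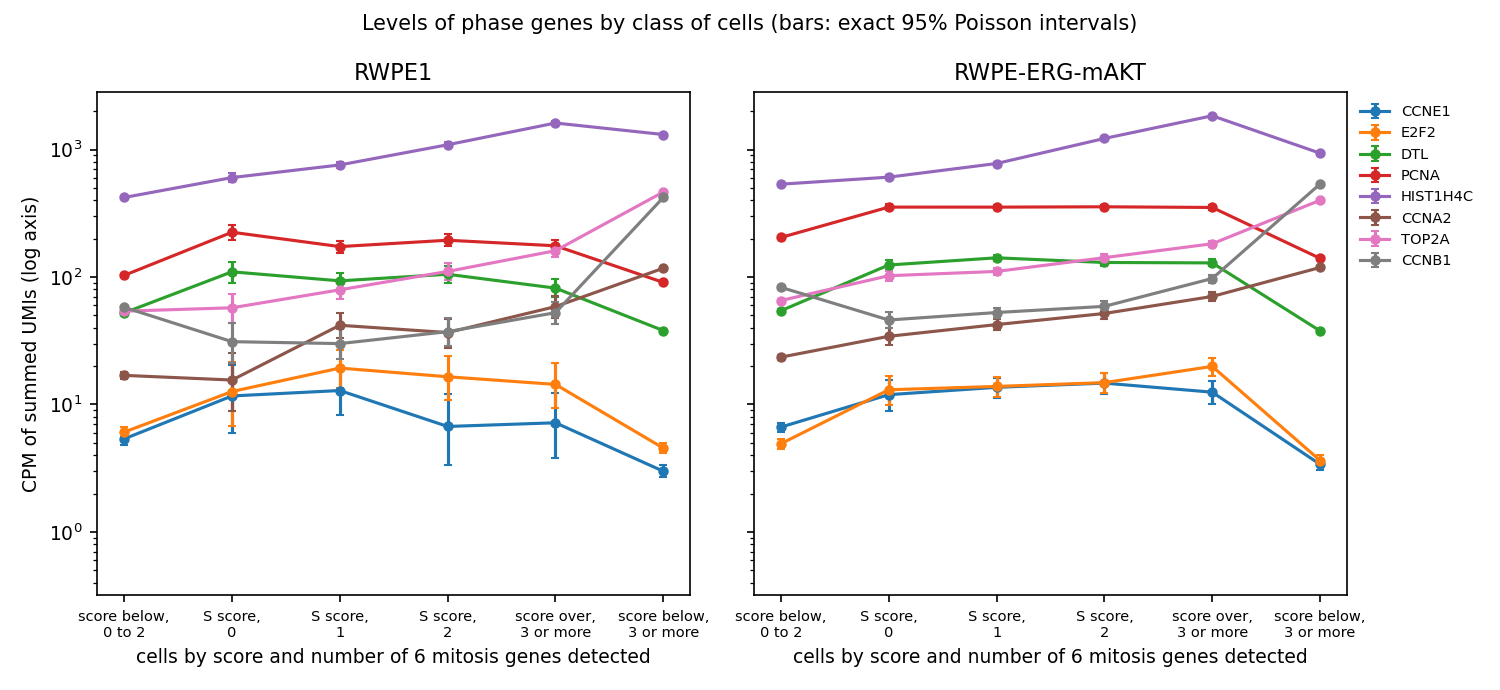
CPM of summed UMIs (log axis) of 8 phase genes in 6 classes of cells, from cells below the score cut with 0 to 2 mitosis genes, through S phase score cells with 0, 1 or 2, to cells over and below the cut with 3 or more, with exact 95% Poisson intervals, RWPE1 left and RWPE-ERG-mAKT right. In RWPE-ERG-mAKT PCNA and DTL are level across the 4 classes over the cut (PCNA 351 to 356 CPM), while TOP2A climbs from 102 to 182 CPM there.

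Over all genes, those highest in both libraries included many of the replication genes above. Over 1.5-fold higher in both were 116 of 8486 genes (1.37%), and over 1.5-fold lower 65 (0.766%), while 2 genes went opposite ways (0.0236%). The higher genes include the 10 score genes and the lower genes the 6 limit genes, whose directions follow from the choice of cells. With score and limit genes left out, the leading genes by the smaller of both ratios included FAM111B, WDR76, ASF1B, MCM10, DTL, EXO1, MCM6, PTPRG-AS1, BRIP1, ZNF367 and TCF19. FAM111B, which encodes a protein with a protease domain, stood at 66.0 CPM against 23.9 in RWPE1 (log2 ratio 1.47) and at 130 against 40.0 in RWPE-ERG-mAKT (1.71). WDR76 had 1.54 and 1.36, and BRIP1, a helicase of the Fanconi pathway, 1.11 and 1.02. The antisense transcript PTPRG-AS1 had 1.44 and 1.07.

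With the limit genes left out, the genes lowest in both libraries were mitosis genes, which the limit favours. CCNB1 (ENSG00000134057, chr5:69167010-69178245, plus strand), cyclin B1, stood at 32.9 CPM against 277 in RWPE1 and at 53.5 against 321 in RWPE-ERG-mAKT. UBE2C, the ubiquitin enzyme of anaphase, had log2 ratios of -2.20 and -1.96. The other leading genes were FAM83D, DEPDC1, DLGAP5, ARL6IP1, KPNA2, CENPA, HMMR, PRR11, CCNB2 and CENPF. Of 33 G2 and mitosis genes, 28 were over 1.5-fold lower in RWPE1 and 20 in the transduced cells, and 0 were higher. When cells with 3 or more mitosis genes were left out of the other cells, the genes over 1.5-fold lower numbered 147 in place of 244 in RWPE1 and 34 in place of 86 in RWPE-ERG-mAKT.

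Few regulators upstream of E2F passed 1.5-fold. The list of D cyclins, their kinases and CDK inhibitors had medians of 0.01 and -0.01, with 0 of 13 genes over 1.5-fold higher in either library. CDKN1B, the inhibitor p27, was the exception at -0.94 (-1.47 to -0.47) in RWPE1 and -0.60 in RWPE-ERG-mAKT. CDK4 stood at 0.33 and 0.38, and RB1 at 0.27 and 0.46. A list of ribosome biogenesis and MYC targets had medians of -0.22 and 0.03, with 0 of 20 genes called either way, and MYC itself stood at -0.48 and -0.34. Of the p53 targets, 1 of 14 was higher (TP53I3, 0.97) and 2 lower (GDF15, a stress cytokine, -1.33, and BBC3, which promotes cell death, -0.84) in RWPE1, and 0 of 12 either way in the transduced cells. DDB2, a target that takes part in DNA repair, was at 0.52 and 0.49.

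Several other lists held genes called higher in S phase score cells of RWPE1 and 0 in RWPE-ERG-mAKT. Of all genes tested, 7.76% in RWPE1 and 3.07% in RWPE-ERG-mAKT were called higher. Not every list was so, as NF-kB targets had 1 of 9 higher in RWPE1 and 2 of 15 in RWPE-ERG-mAKT. FOXO targets had 2 of 13 and 1 of 14 higher, with 2 and 1 lower. Of the mesenchymal list, 7 of 10 genes tested were over 1.5-fold higher in RWPE1 with a median log2 ratio of 1.57, and 0 of 7 in RWPE-ERG-mAKT with a median of 0.12. TNC (ENSG00000041982, chr9:115019578-115118257, minus strand), the matrix glycoprotein tenascin C, stood at 83.7 CPM against 12.8 in RWPE1 (2.70) and at 75.3 against 55.3 in RWPE-ERG-mAKT (0.45). FN1, fibronectin, had 2.11 and 0.57, and the intermediate filament VIM 1.68 and 0.12. Interferon response genes were higher in 10 of 14 (median 0.71) and 0 of 15 (median 0.07), and basal epithelial genes in 4 of 15 (0.33) and 0 of 15 (0.04). KRT14, a basal keratin, stood at 3266 CPM against 1560 in RWPE1 (1.07) and at 2324 against 2177 in RWPE-ERG-mAKT (0.09). Of the luminal list, 1 of 7 genes was over 1.5-fold higher in RWPE1 (CD24, a surface protein, 0.80) and 0 lower, and 0 of 8 higher and 1 lower (CLDN4, a tight junction protein, -0.97) in the transduced cells. Its keratins KRT18 and KRT19, not past 1.5-fold, stood at -0.56 and -0.58 in RWPE1 and at -0.09 and 0.07 in RWPE-ERG-mAKT.

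In RWPE1 the share of S phase score cells followed the level of the mesenchymal list. This list holds 22 genes, among them VIM, FN1, CDH2, SPARC and TNC, and none is in the score. Among cells with under 2 UMIs of the list per 10000, 87 of 4951 were S phase score cells (1.76%). The share was 1.71% from 2 to 5, 2.31% from 5 to 10, 4.80% from 10 to 15, 11.3% from 15 to 20 and 12.3% from 20 to 30. At 30 or more it was 58 of 396 cells (14.6%, 11.3 to 18.5%). In RWPE-ERG-mAKT the shares in the same bins lay between 11.0 and 13.6% up to a level of 20, were 17.8% from 20 to 30 and 12.2% above, the last of them 10 of 82 cells.

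Split at 10 UMIs per 10000, a point chosen after the data were seen, 154 of 8561 RWPE1 cells below it (1.80%) and 155 of 1406 at or above it (11.0%, 9.43 to 12.8%) were S phase score cells, a ratio of 6.13 (4.87 to 7.71). In RWPE-ERG-mAKT the shares were 11.2% and 13.3%, a ratio of 1.19 (1.04 to 1.35). The ratio between the libraries was 6.24 (5.27 to 7.42) below 10 and 1.21 (0.989 to 1.48) at or above it. Thus 50.2% of the S phase score cells of RWPE1 lay among 14.1% of its kept cells. The level is a range and no cell type, with 866 RWPE1 cells from 5 to 10 and 333 from 10 to 15.

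Depth moved with this level and was checked within bins. The median was 17510 UMIs below 10 and 13286 at or above it in RWPE1, and cells with 3 or more mitosis genes were 53.5% and 36.1%. The share of RWPE1 cells was 3.91% and 11.4% under 10000 UMIs, 2.07% and 14.6% from 10000 to 15000, 2.52% and 9.35% from 15000 to 20000, and 0.763% and 3.63% from 20000 UMIs on. It was higher at the high level in all 4 bins. Without the mitosis limit the shares over the cut were 2.65% and 12.4%. Summed over cells, score genes were 4.13 UMIs per 10000 below 10 and 5.71 at or above it, a much smaller difference than that of the shares. Replication genes outside the score summed to 83.8 and 88.6 UMIs per 10000 in the same RWPE1 cells, which lie closer still. After thinning to 5000 UMIs the ratio of shares was 2.25. Replicate cultures that could show how far the share varies were not analysed here.

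**Figure D4:**
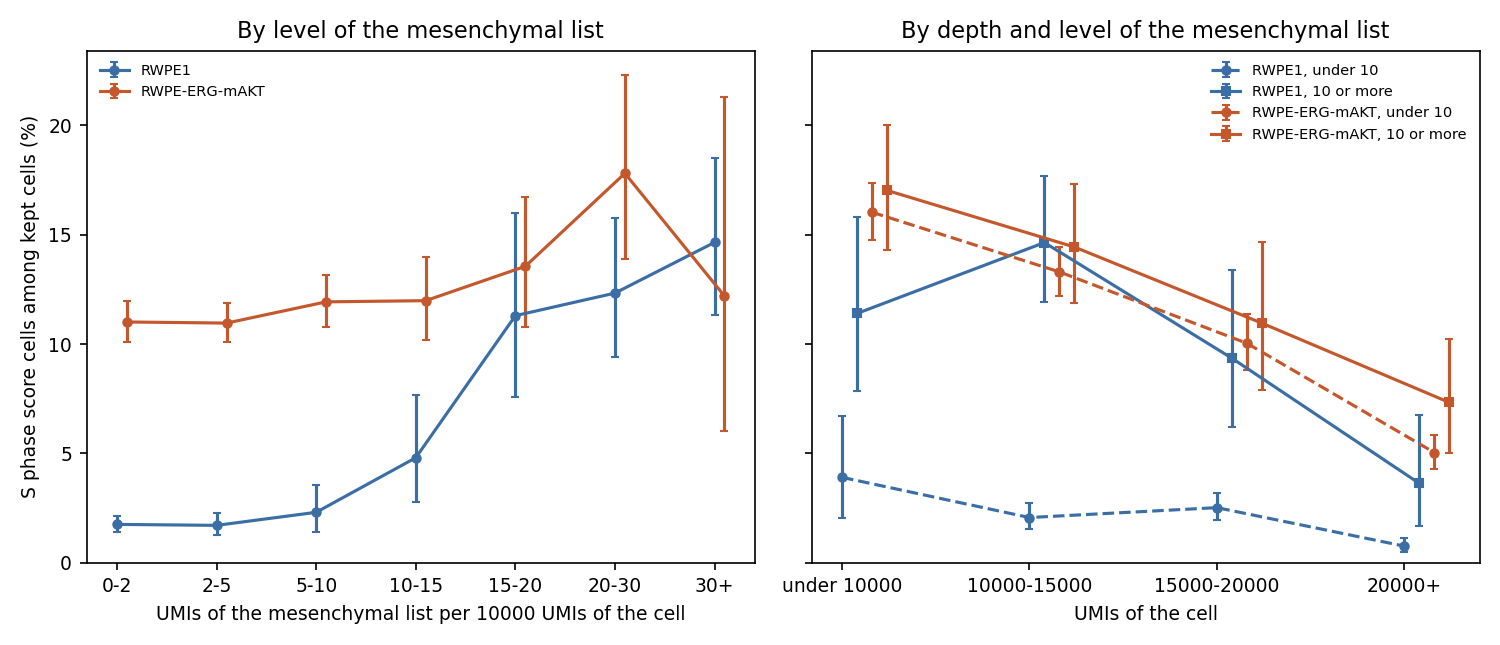
Percent of kept cells that were S phase score cells (y axis, exact 95% binomial intervals) by UMIs of the mesenchymal list per 10000 (left) and by depth of the cell with the list under 10 or at 10 and over (right), for RWPE1 and RWPE-ERG-mAKT. RWPE1 goes from 1.76% in the lowest bin to 14.6% in the highest, while RWPE-ERG-mAKT stays between 11.0% and 17.8%.

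The replication genes were higher at both levels of the list. Without the RWPE1 cells at 10 or more, 50 of 108 replication genes were over 1.5-fold higher in S phase score cells (beside 3.99% of 9319 genes), with a median log2 ratio of 0.55, and within those cells 41 of 106 were (beside 3.89% of 9689), with a median of 0.44. Lower were 2 of 108 (beside 2.31%) and 1 of 106 (beside 3.71%). In the transduced cells 72 of 109 were higher below 10 (beside 3.15%) and 61 of 108 at or above it (beside 3.7%), and CCNA2 alone was lower at each level (beside 0.972% and 1.73%). The mesenchymal list in RWPE1 then had 0 of 7 higher, basal genes 1 of 15 and interferon response genes 4 of 11 in the cells below 10. CCNE1 stood at 13.2 CPM against 4.03 in S phase score cells and other cells below 10, and E2F2 at 18.4 against 5.45. PCNA stood at 151 against 92.0 CPM below 10 and at 244 against 133 above. The mesenchymal difference of the whole library was thus absent below 10, as the split imposes, while the replication genes kept their direction.

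S phase score cells of RWPE1 on both sides of the split differed in many other genes. Over 2-fold higher at the high level were 927 of 9847 genes (9.41%) and over 2-fold lower 486 (4.94%). CUX2, a homeobox factor, stood at 203 CPM against 7.98, and KCNMA1, a potassium channel, at 143 against 5.59. The protease inhibitor SERPINE2 stood at 299 against 15.6. KRT19 was lower at 173 CPM against 968, and PLAC8 at 54.4 against 423. The same genes differed among other cells of RWPE1, with log2 ratios of 5.92 for CUX2, 5.08 for SERPINE2 and -1.59 for KRT19 against 4.67, 4.26 and -2.48 in the S phase score cells. CUX2 was detected in 101 of 155 cells at the high level and 6 of 154 at the low.

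Few replication genes of S phase score cells differed over 2-fold between the libraries. In S phase score cells of RWPE-ERG-mAKT over those of RWPE1, 6 of 110 replication genes outside the score were over 2-fold higher, beside 6.59% of 9714 genes tested, and 1 was over 2-fold lower (TICRR, an origin firing factor, -1.20), beside 12.7%. Their median log2 ratio was 0.20, beside -0.07 for all genes, and in other cells it was -0.03, with 1 of 105 higher (SLBP, beside 8.09%) and 1 lower (DSCC1, of the clamp loader, beside 13.2%). Below 10 mesenchymal UMIs per 10000, 10 of 111 were higher and 4 lower (beside 9.6% and 13.2%), and at or above it 6 and 1 of 108 (beside 7.07% and 12.9%). Median-of-ratios scaling moves all these ratios up by 0.24, so the median becomes 0.44, and the genes over 2-fold higher and lower become 1136 and 795 in place of 640 and 1231. PCNA was at 0.88 (0.78 to 0.98), SLBP at 1.13, FEN1 at 0.84 and RRM2 at 0.74. POLE2 and DNA2, a polymerase epsilon subunit and a nuclease helicase, were at -0.76 and -0.90. E2F1 was at -0.51 (-0.68 to -0.33). The share of replication genes over 2-fold higher was thus near that of all genes.

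The genes that differed most between the libraries in S phase score cells were not replication genes, and those given here differed in other cells too. The keratin KRT6B stood at 1.99 CPM in RWPE1 and 127 in the transduced cells (interval of the log2 ratio 5.07 to 7.13), and its log2 ratio in other cells was 6.90. The protease inhibitor SLPI stood at 57.2 and 1135 CPM (4.31, and 4.38 in other cells), and serum amyloid SAA1 at 133 and 1538 (3.53 and 3.39). IER2, an immediate early gene, was at 3.21 and 3.51. Lower in RWPE-ERG-mAKT were PLAC8, from 259 to 1.63 CPM (-7.31 and -7.88), and KRT13, a keratin of stratified epithelium, from 150 to 4.01 CPM (-5.22 and -4.88). The other leading genes were RRAD, SAA2, IGFL1, TMTC1, BIRC3, PLD5, OSBP2 and TUBB3 on the higher side and CLIC3, BCAM, BST2, LY6D, COL8A1, LINC00486, AMIGO2, HMGA2, IGFBP2 and FST on the lower.

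**Figure D5:**
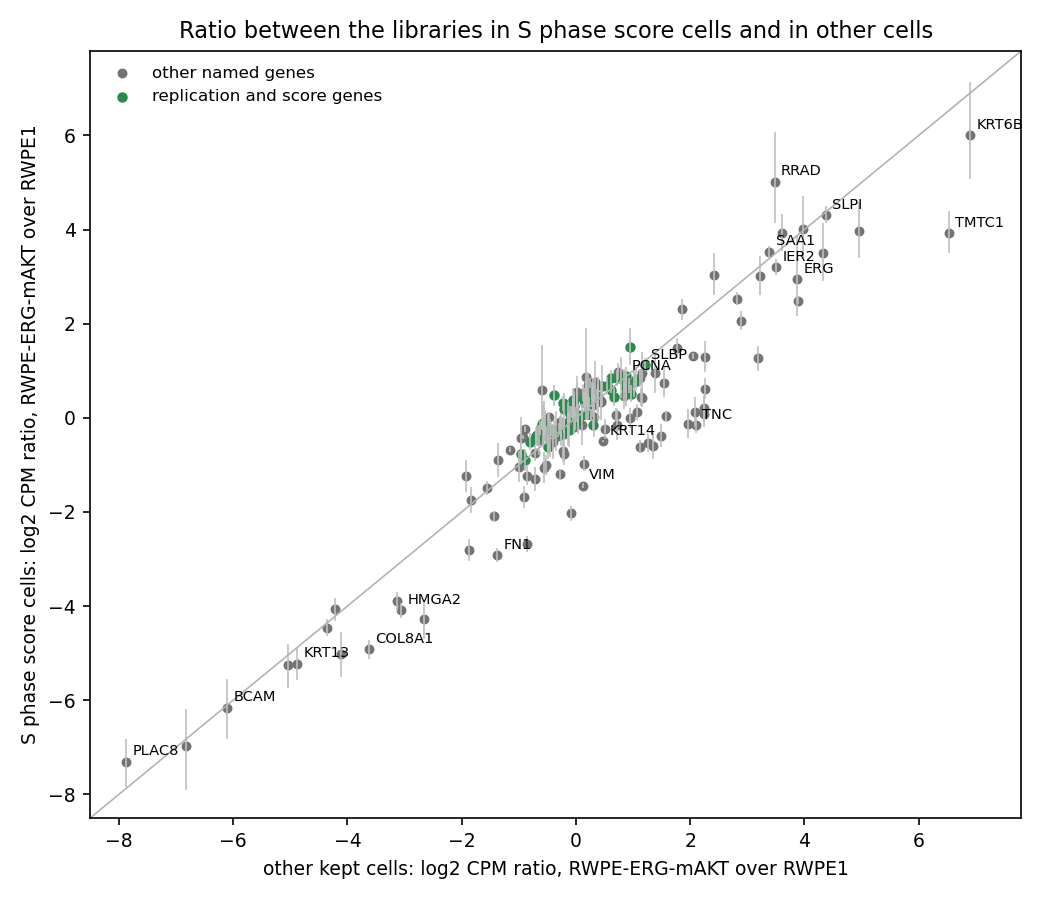
Log2 ratio of CPM, RWPE-ERG-mAKT over RWPE1, in other cells (x axis) and in S phase score cells (y axis) for the named genes, replication and score genes in green, with exact 95% intervals of the S phase score ratio and the diagonal of equal ratios. SLPI (4.38 and 4.31) and PLAC8 (-7.88 and -7.31) lie near the diagonal, and TNC (2.11 and -0.15) and VIM (0.12 and -1.44) lie below it.

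Of the lists, NF-kB targets had 9 of 15 genes over 2-fold higher and 1 lower (IL1A) in S phase score cells of the transduced library (median log2 ratio 2.64), beside 6.59% and 12.7% of all genes. Basal epithelial genes had 6 of 15 lower and 1 higher (KRT17), with a median of -0.72, and ATF4 targets 8 of 18 lower and 0 higher (-0.68). In other cells the medians of the NF-kB, basal and ATF4 lists were 1.46, -0.38 and -0.92, so these directions were not particular to S phase score cells. Mesenchymal genes had 5 of 11 lower and 1 higher (LOX), with a median of -0.91, but below 10 mesenchymal UMIs per 10000 they had 2 of 9 lower and 3 higher, with a median of -0.05, and in other cells 3 of 9 lower and 2 higher (0.12). CCND1, cyclin D1, stood at 173 CPM in RWPE1 and at 42.8 in the transduced cells, a log2 ratio of -2.02. In other cells its log2 ratio was -1.80. The median of the G2 and mitosis list was 0.46, with 3 of 33 genes over 2-fold higher and 0 lower. In other cells it was 0.11, with 2 higher and 1 lower. The mitosis limit acts on detection, and S phase score cells of RWPE-ERG-mAKT were shallower (median 11430 against 14199 UMIs). How far this bears on the 0.46 was not tested.

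Some genes had a different library ratio in S phase score cells. TNC was at -0.15 (-0.31 to 0.01) in S phase score cells and 2.11 in other cells, and with median-of-ratios scaling the first became 0.09. MAGI2, a scaffold protein, was at 0.09 and 2.24, the tubulin TUBA1A at 0.20 and 2.25, SERPINE2 at -2.68 and -0.85 and IGFBP6 at -2.03 and -0.09. TNC, MAGI2, TUBA1A and SERPINE2 were also among the genes higher in RWPE1 S phase score cells at 10 or more UMIs of the mesenchymal list. TNC among S phase score cells below 10 was at 3.99 between the libraries, from 6 UMIs in RWPE1. TNC belongs to the list that makes the split. Its ratio below 10 and its higher level at 10 or more thus follow in part from the split itself. SPRR1B and S100A8, squamous genes, also had different ratios, but the RWPE1 UMIs came from 16 and 18 cells, with 35.1% and 53.4% in the top cell.

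The introduced genes were read in the same cells. ERG had 13 UMIs in 9 S phase score cells of RWPE1 (2.87 CPM, 1.53 to 4.91) and stood at 22.2 CPM (20.3 to 24.3) in RWPE-ERG-mAKT, where other cells were at 20.6. It was detected in 21.3% of S phase score cells and 24.2% of other cells of RWPE-ERG-mAKT, which were deeper, and in 2.91% and 2.30% of those of RWPE1. AKT1 was at 26.9 CPM in RWPE1 and 21.2 in the transduced cells, a log2 ratio of -0.34 (-0.63 to -0.04), and a 3′ tag need not fall on the transcript of the construct. Within RWPE-ERG-mAKT the level of ERG thus differed little between S phase score cells and other cells (log2 ratio 0.11, -0.03 to 0.24).

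Markers of other cell types were counted in the S phase score cells. Microglia markers had 4 UMIs in RWPE1 and 9 in the transduced cells, with 7 of 10 genes at 0 in both. Endothelial markers had 6 and 37 UMIs. The fibroblast list had 131 and 783 UMIs, mainly MFAP5 (116 UMIs) in RWPE1 and DCN (598) in RWPE-ERG-mAKT, or 28.9 and 36.6 CPM against 39.4 and 31.8 in other cells. DCN, the matrix proteoglycan decorin, stood at 27.9 CPM in S phase score cells and 22.6 in other cells of RWPE-ERG-mAKT and had 0 UMIs in S phase score cells of RWPE1. Neuroendocrine markers had 31 and 210 UMIs, 166 of the latter from ENO2, immune markers 55 and 282, of which CD68 gave 49 and 279, and choroid plexus markers 10 and 11. Their part in the results was not tested. Of epithelial genes, KRT18 stood at 817 and 512 CPM in S phase score cells, beside KRT14 at 3266 and 2324 CPM.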

How the data were processed

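Single-cell RNA was captured with the Chromium Next GEM 3′ kit v3.1, from an input of 10000 cells a library. The deposited counts are Cell Ranger 7.1.0 output on hg38, as named in the submitters' notes on processing, that is raw UMI counts for 36601 genes, without normalization, for 12504 barcodes of RWPE1 (217340524 UMIs) and 17355 of RWPE-ERG-mAKT (237490385 UMIs). Kept cells held 192789925 and 225121037 UMIs, and S phase score cells 4528820 and 21421882, which sets the precision of sums.

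Kept cells passed the limits given in the report. These differ from the limits in the study's methods (200 to 2500 genes, with a sentence on 7.5% mitochondrial reads that can be read either way). Levels are UMIs summed over cells as CPM with exact Poisson intervals. Ratios carry the exact conditional interval of a ratio of counts and shares the Clopper-Pearson interval, all at 95%. Genes were called by size alone, past 1.5-fold between cells and past 2-fold between libraries, with at least 10 CPM in either group and at least 1 UMI in each. With 1 library a condition no p-value was computed. The script was tested on simulated counts with known changes and on simulated cells with a separate high-score group. The real scores form a range without such a gap, so this checks the calculation and not the choice of cells. Medians are over listed genes that passed this minimum. No doublet caller was run, and leaving out the 5% of cells with the most UMIs was an alternative. Gene coordinates are from GENCODE release 29 on GRCh38, which held 34616 of the gene identifiers (94.6%), and promoters from RefSeq (GRCh38.p14). Counts were pooled without regard to overlapping or antisense genes. Scripts ran in Python 3.11.15 with scipy 1.17.1, numpy 2.4.6, matplotlib 3.10.9 and pandas 2.3.3.

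The members, lists and rules were chosen with earlier results of these data known. Named were the 10 score genes and 6 limit genes, up to 5 genes of each replication list and up to 4 of each other list by mean absolute log2 ratio, the 12 leading genes each way in both libraries (at least 20 CPM), the 12 each way between libraries in S phase score cells (at least 50 CPM), the 12 whose library ratio differed most between S phase score cells and other cells, ERG, AKT1 and listed members on which a result turns. CUX2, KCNMA1, HIST1H4C, TOP2A, ORC2, DBF4, TICRR, DSCC1, DCN, MFAP5, ENO2, CD68, LOX, HIST1H2AC and SOX9 were chosen after their values were seen, as was the split itself. Not every gene that the rule names is reported here.

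Alternatives were thinning each cell to 5000 UMIs, the percentile in each library by itself, the 95th percentile, no mitosis limit, the 7 marker genes alone as score, no mitochondrial filter, at least 200 genes, the deepest 5% left out, mitotic cells left out of the other cells, means over cells, median-of-ratios scaling, minimum 50 CPM or none, and, added after the data were seen, cells at 10 or more mesenchymal UMIs per 10000 left out.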

Additional observations from a re-analysis of the deposited data

Results flagged for a closer look

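S100A8 and SOX9 were over 1.5-fold higher in S phase score cells of one library and over 1.5-fold lower in those of the other, 2 of 8486 genes tested in both (0.0236%). The difference between the libraries was not tested. S100A8, a calcium-binding protein of squamous and inflamed epithelium, had a log2 ratio of S phase score cells over other cells of 1.11 in RWPE1 and -0.69 in RWPE-ERG-mAKT. Its 309 UMIs in RWPE1 came from 18 cells, 165 of them from the top cell. SOX9, a transcription factor of epithelial progenitors, had 1.24 in RWPE1 (126 UMIs in 64 cells, the top cell with 26) and -0.81 in RWPE-ERG-mAKT (197 UMIs in 168 cells). Below 10 mesenchymal UMIs per 10000, SOX9 in RWPE1 was at 1.06, and at or above it at 0.72.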

How the results depend on the processing

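Of 154 values recomputed under 14 settings, 112 stayed within a set limit and 42 moved. The limit was 1.5 times for counts of genes and the counting interval for shares and their ratios. For medians it was the reach of the counting interval of the middle gene, which is no spread of the median. The replication median between libraries, 0.20 in the main setting and 0.44 with median-of-ratios scaling, thus stayed within it. A change of direction was scored only for median log2 ratios, and 0 of these changed. The ratio of shares between the libraries was above 1 in 9 of 9 settings. Where a value moved, the cause was not tested unless given here. The share of RWPE1 and of RWPE-ERG-mAKT became 5.84% and 12.7% with thinning (ratio 2.18), 7.41% and 8.30% with the percentile in each library by itself (1.12, which that setting pulls towards 1 by construction), 1.18% and 6.23% at the 95th percentile (5.26), and 4.03% and 14.2% without the mitosis limit. Without cells at 10 or more mesenchymal UMIs the RWPE1 share was 1.80% and the ratio 6.24. The ratio of RWPE1 shares at high over low mesenchymal level became 2.25 with thinning, 3.63 with separate percentiles, 11.4 at the 95th percentile and 4.69 without the limit. Genes higher and lower in RWPE1 S phase score cells became 338 and 153 with thinning, 377 and 138 with separate percentiles, 1368 and 654 at the 95th percentile, 203 and 71 with a minimum of 50 CPM, 4897 and 1502 with none, 372 higher without the mesenchymal cells, and 147 lower without mitotic other cells. In RWPE-ERG-mAKT they became 104 and 37 at 50 CPM, 4214 and 1645 with no minimum, and 34 lower without mitotic other cells, and the median replication ratio 0.78 at the 95th percentile and 0.82 without the limit. Between libraries, genes higher and lower, 640 and 1231 in the main setting, became 1136 and 795 with median-of-ratios scaling, so the larger side changed. They became 329 and 409 at 50 CPM and 1570 and 4742 with no minimum. No paired analysis was possible because each condition was 1 library. Few score UMIs a cell limit the choice of cells, and the 309 RWPE1 cells limit counts of genes there.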
